A study of Mus musculus with 12 samples.

Results

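The response of Pkm2 knockout (KO) mouse CD4 T cells to antibodies against CD3 and CD28 was measured in 6 of the 12 messenger RNA libraries of the study, the 3 stimulated and the 3 resting KO libraries. The other 6 libraries are wild type (WT) cells under the same conditions. They serve to compare the size of the response, and they share in the gene filter, the scaling and the estimate of spread. KO cells carry the genotype label Pkm2 knockout. The labels give neither the allele nor a Cre driver, so it is not known here whether other cells of the animals lacked Pkm2 too. The CD4 T cells were positively selected from lymphoid tissue and cultured for 24 hours, also labelled overnight, in medium with 25 ng/mL human interleukin 7 (IL7). Resting libraries had IL7 alone. Stimulated libraries also had plate-bound anti-CD3 at 1 ug/mL and anti-CD28 at 2 ug/mL. Age, sex and strain of the mice are not given in the labels, and they do not say if each library is its own animal. The p-values therefore rest on a spread between libraries that could be technical. Genes on chromosomes X and Y, 4184 of 55450 in the tables, were left out of every fit, and 16924 autosomal and mitochondrial genes were tested.

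Antibodies against CD3 mimic antigen by cross-linking the T cell receptor, and antibodies against CD28 supply costimulation. Together they activate the calcium and NFAT, the AP-1 and the NF-kB pathways, and a naive CD4 T cell then leaves quiescence. It grows, raises its uptake of glucose and amino acids, makes ribosomes, secretes interleukin 2 and enters the cell cycle. Pkm encodes the muscle-type pyruvate kinases, which turn phosphoenolpyruvate into pyruvate at the end of glycolysis. Its M1 and M2 forms arise from alternative exons of the same transcript, and activated lymphocytes mainly use M2. Pyruvate can then be reduced to lactate or oxidised in mitochondria.

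The 6 KO libraries held 67333490 to 76891786 counts each. Gene levels are in CPM (counts relative to the library's TMM-scaled total without X and Y genes). On that scale a floor of 3 counts per library lay at 0.0382 to 0.0387 CPM at rest (mean 0.0384) and at 0.0448 to 0.0512 CPM after stimulation (mean 0.0475), and it covers counting error only. Relative to all counts of the library, Xist, an X-linked RNA made in female cells, was in the resting KO libraries at 0.0577 to 0.0971 CPM and the Y-linked Ddx3y at 158 to 188 CPM. In the stimulated KO libraries Xist was at 863 to 1015 CPM and Ddx3y at 0 counts. Stimulation, the sex-linked transcripts and the deposited table (resting and stimulated libraries are in separate tables) cannot be told apart. Scaling moved the centre of the data: the median log2 change of all tested genes was -0.11 with TMM scaling and -0.45 with library totals alone, so that the share of called genes that were higher went from 47.8% to 37.6%. A gene said here to have risen or fallen passed edgeR's quasi-likelihood test at an adjusted p of 0.05. Values are mean CPM ± SD over the 3 libraries of a group, and log2 fold changes have their standard error after ±. Summed levels of lists and markers are relative to unscaled totals without X and Y genes, so their falls are larger than on the TMM scale.

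Pkm, on chromosome 9 at chr9:59656368-59679375 (mm10), was at 178, 201 and 194 CPM in the 3 resting KO libraries and at 1091, 1099.6 and 1070.4 CPM in the 3 stimulated ones. It rose 5.699-fold with stimulation (log2 2.51 ± 0.07, adjusted p = 4.58e-12). WT libraries had 436, 443 and 524 CPM at rest and 2566, 2532 and 2607 CPM after stimulation, so each KO library lay below each WT library of its condition. The difference from WT was -1.295 ± 0.07 on the log2 scale at rest (adjusted p = 2.15e-06) and -1.24 ± 0.07 after stimulation (adjusted p = 8.84e-06). These are counts per gene over both forms, so they do not show which exon the remaining KO transcripts carry.

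Most of the transcriptome differed between stimulated and resting KO cells. Of the 16924 genes, 14036 were called (82.9%), of which 6711 rose (39.7% of the genes tested) and 7325 fell (43.3%). By at least 2-fold 8787 changed (51.9%), 3848 upward (22.7%) and 4939 downward (29.2%). The 3 stimulated libraries lay wholly above the 3 resting ones for 6994 genes (41.3%) and wholly below them for 7681 (45.4%), 86.7% together. Counts for a gene group are to be read against these shares. The 15 largest increases among genes with a mean of at least 3 CPM included Crabp2, a retinoic acid carrier, which went from 0.0469 ± 0.0147 to 78.3 ± 3.77 CPM. Ak4, a mitochondrial adenylate kinase, went from 0.247 ± 0.107 to 53.3 ± 3.75 CPM, and Bcat1, the cytosolic branched-chain amino acid transaminase, from 1.55 ± 0.404 to 174 ± 4.25 CPM. The others were Fosl1, Il2, Cth, Timd2, Lif, Hpdl, Il13, Ncs1, Ccl22, Ptgs2, Atf3 and Tg. That each stimulated library was above each resting one in all 15 follows from the rule that chose them. Without the third resting library the rise of Timd2 was 7.79 and that of Ptgs2 6.71 on the log2 scale, against 7.09 and 5.83 with it.

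**Figure D1:**
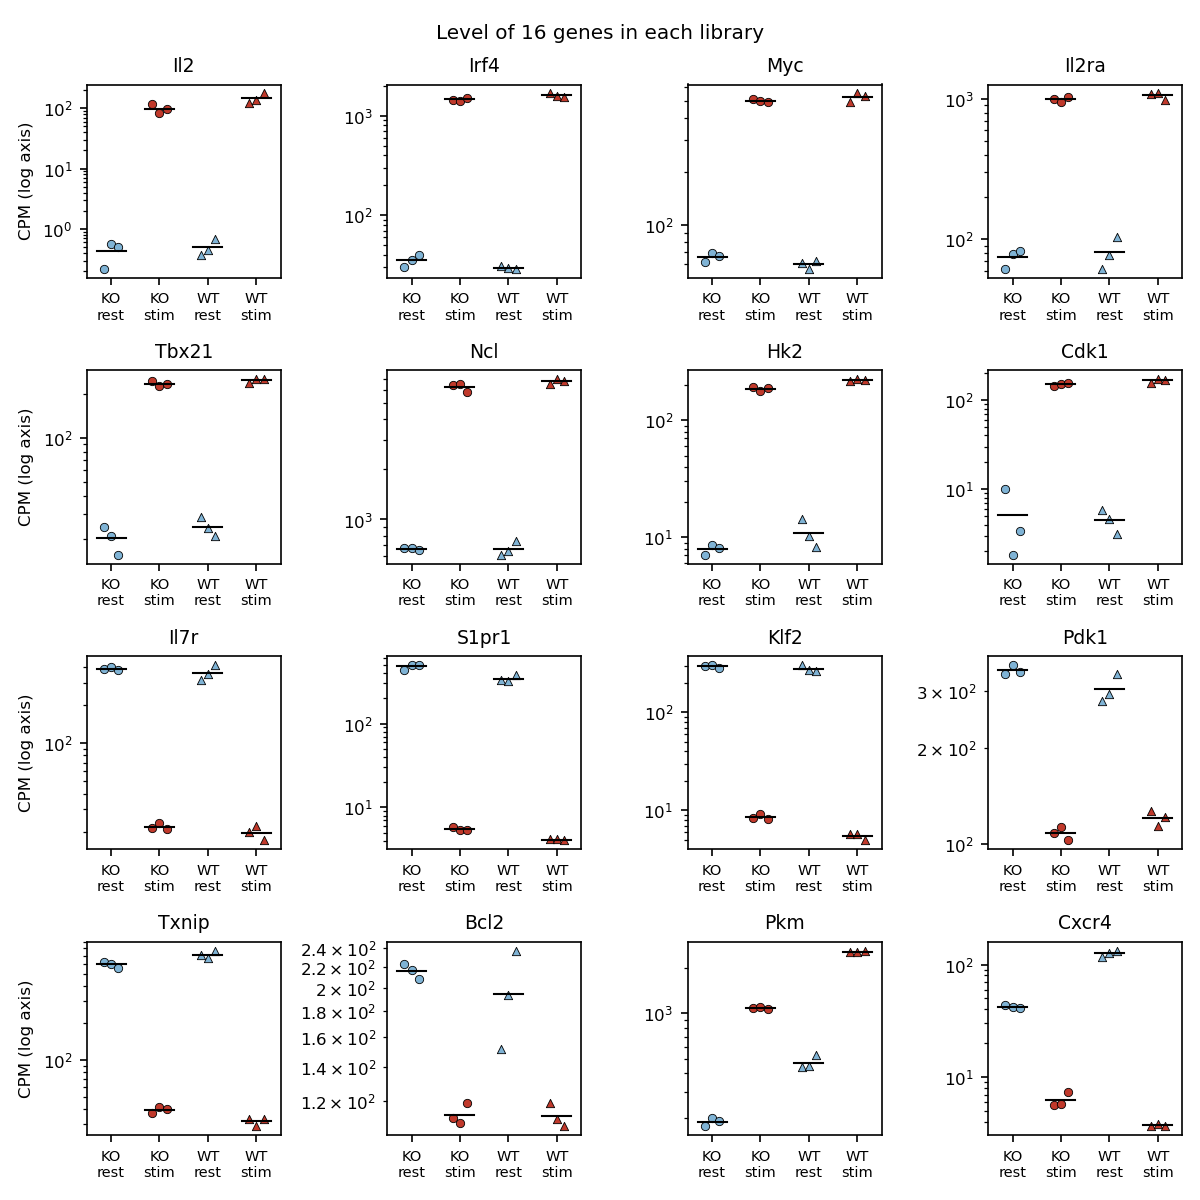
CPM on a log axis of 16 genes in each of the 12 libraries, with circles for Pkm2 knockout, triangles for wild type, blue for resting, red for stimulated and a line at the group mean. In each panel the 3 stimulated knockout libraries lie apart from the 3 resting ones, above them for Il2, Irf4, Myc, Il2ra, Tbx21, Ncl, Hk2, Cdk1 and Pkm and below them for the other 7 genes.

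The T cell receptor and its proximal kinases and adaptors mostly fell. Of 24 genes, 19 fell and 3 rose (median log2 -0.85). Cd3g, a subunit of the receptor's CD3 complex, was at 261, 300.1 and 290.4 CPM at rest and 54.6, 58.7 and 61.9 CPM after stimulation, 4.86-fold lower. Lck, the kinase that phosphorylates CD3, fell from 739 ± 55.99 to 354 ± 2.54 CPM, and the coreceptor Cd4 from 911 ± 40.5 to 405 ± 12.3 CPM. Themis, an adaptor that tunes receptor signals, fell 5.96-fold. Malt1, a protease of the path from the receptor to NF-kB, rose by 0.48 on the log2 scale. CD4 T cell markers as a whole had a summed level of 5845 to 6205 CPM at rest and 3259 to 3356 CPM after stimulation, where 10 of 13 fell. In bulk libraries fewer cells of a type and less RNA per cell cannot be told apart. CPM are shares of a library, and total RNA per cell is not known here. A lower CPM therefore need not mean fewer transcripts per cell, here and for the other genes that fell.

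Among 21 genes that restrain receptor signals, 9 rose and 10 fell. The list's median was 0.09 with TMM and -0.25 with library totals alone, so the group as a whole had no direction. Its members went far in both directions. Spry1, an inhibitor of the Ras and MAP kinase pathway, rose from 3.404 ± 0.347 to 88.1 ± 3.38 CPM, and Dusp4, a MAP kinase phosphatase, from 6.92 ± 1.31 to 77.2 ± 9.31 CPM. Cblb, a ubiquitin ligase that limits CD28 signals, rose 2.404-fold. Dgka, which removes diacylglycerol, was at 989.9, 1058 and 1115 CPM at rest and 125, 141 and 134 CPM after stimulation and fell 7.91-fold. Of 24 genes of calcium entry, calcineurin and NFAT, 9 rose and 13 fell. The calcium channel subunit Orai2 fell 14.3-fold, while its relative Orai1 went from 35.1 ± 4.69 to 65.6 ± 1.55 CPM and rose 1.87-fold. Of the calcium pumps of the endoplasmic reticulum, Atp2a2 rose 3.49-fold and Atp2a3 fell 3.28-fold.

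Transcription factors of the activated state rose together. Of 24 immediate early and AP-1 genes 21 rose and 1, Ier5, fell (median log2 1.94). Irf4, which scales with receptor signal strength, was at 30.4, 35.3 and 39.5 CPM at rest and 1453, 1421 and 1509 CPM after stimulation. This was a 41.7-fold rise (log2 5.38 ± 0.09, adjusted p = 1.61e-13), and the groups lay far apart. Fosl1, an AP-1 subunit, went from 0.0341 ± 0.0147 to 19.2 ± 1.14 CPM, Nr4a2, an orphan nuclear receptor, from 1.54 ± 0.156 to 17.04 ± 1.07 CPM, and Irf8 from 74.5 ± 2.33 to 525 ± 32.2 CPM. Fos itself had 6.23, 6.84 and 6.93 CPM at rest and 6.66, 7.21 and 7.32 CPM after stimulation and was not called (adjusted p = 0.63). Of 14 NF-kB subunits and inhibitors 10 rose and 1, Nfkbiz, fell (7 and 5 with library totals alone). Nfkb1, the precursor of p50, rose 3.11-fold and Nfkb2, the precursor of p52, 3.46-fold.

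NF-kB genes are known to be regulated by NF-kB itself, so their promoters were searched for the kappaB letters, GGGA, TT and CC with any 1 base between each, on both strands. The windows are RefSeq's (GRCm38.p6, 250 bases before to 50 after a start), and the searched lists were matched by symbol. Of 16 windows of 11 of these genes 7 held a match, 43.8%, against 1.21% of 31396 autosomal windows. Among the 14312 windows of tested genes the share was 1.39%, and among those of genes called at least 2-fold higher 1.51%. Some genes have several windows, and the matches were in those of Bcl3, Nfkb2, Nfkbia, Nfkbid and Rel. The 250 bases before the start of Nfkb2 are shown because it had the largest rise among the genes with a match (chr19:46304487-46304736, plus strand, match in capitals).

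Nfkb2: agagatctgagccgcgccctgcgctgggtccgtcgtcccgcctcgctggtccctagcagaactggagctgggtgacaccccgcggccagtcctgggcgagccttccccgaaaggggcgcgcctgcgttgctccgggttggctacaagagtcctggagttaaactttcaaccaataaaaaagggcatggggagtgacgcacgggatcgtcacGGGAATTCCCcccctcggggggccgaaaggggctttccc

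A match is a description and not a site of binding, here and for the other promoters shown. Each motif was searched in a list of genes grouped by known function, such as interferon response genes. A high share can therefore follow from how the list was chosen and is not a result of these libraries, here and for the later motifs. The AP-1 letters TGANTCA, searched in the same way, were in 0 of 26 windows of the immediate early list, against 7.84% of all windows. Windows of tested genes held them in 5.43% of cases. The share was 5.04% for genes called at least 2-fold higher and 7.22% for those called at least 2-fold lower.

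Most cytokine genes rose, several of them from very low resting levels. Of 31 cytokine, chemokine and TNF ligand genes 25 rose and 4 fell (median log2 3.67). Their summed level changed less, from 1027 ± 48.6 CPM at rest to 1229 ± 65.6 CPM after stimulation, since Ltb, abundant at rest, fell. Il2, the growth factor of activated T cells, was at 0.217, 0.568 and 0.497 CPM in the resting and 119, 81.8 and 95.1 CPM in the stimulated libraries. That is a 230.0-fold rise (log2 7.85 ± 0.31, adjusted p = 3.22e-09) with no overlap between groups. Il3, a haematopoietic growth factor, had 0 counts in each resting library and 5.77, 3.63 and 3.22 CPM after stimulation, at least 109-fold higher against the floor of 3 counts per library. Il9 also had 0 counts in each resting library and was at 2.25, 1.75 and 1.59 CPM after stimulation, at least 48.5-fold higher. Cytokines of different helper programmes rose side by side: the T helper 2 cytokine Il13 from 0.158 ± 0.0403 to 15.4 ± 2.47 CPM, Ifng of T helper 1 cells from 2.24 ± 0.618 to 64.1 ± 18.8 CPM, and Il10 from 0.359 ± 0.0231 to 2.11 ± 0.493 CPM. Lif, a cytokine of the interleukin 6 family, rose from 1.52 ± 0.417 to 201 ± 6.49 CPM, and Tnfsf8, the CD30 ligand, from 73.6 ± 4.16 to 291 ± 8.82 CPM. The genes that fell were Osm, Ltb from 459 ± 48.7 to 63.7 ± 1.28 CPM, Tnfsf10, which encodes the death ligand TRAIL, from 38.8 ± 1.03 to 12.7 ± 1.19 CPM, and Ccl5 from 44.05 ± 6.54 to 12.03 ± 0.763 CPM.

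Cytokine receptors mostly fell, 13 of 19, while 5 rose (median log2 -1.15). Il7r, the receptor chain for the IL7 that was in the medium of both groups, was at 385, 397 and 374 CPM at rest and 21.6, 23.4 and 20.9 CPM after stimulation. It fell 17.6-fold (log2 -4.13 ± 0.12, adjusted p = 9.50e-12), and each stimulated library was far below each resting one. Tgfbr2, a receptor for TGF-beta, fell 7.11-fold and Il18r1, a receptor for interleukin 18, 14.8-fold. The interleukin 12 receptor chains rose, Il12rb1 from 14.04 ± 1.36 to 208 ± 6.28 CPM and Il12rb2 from 9.03 ± 2.47 to 60.1 ± 3.31 CPM. Il2ra, the high-affinity chain of the interleukin 2 receptor, rose from 74.6 ± 11.5 to 1002 ± 41.7 CPM, a 13.4-fold change, and Il2rb went from 230.3 ± 15.4 to 457 ± 22.98 CPM. Downstream of these receptors Stat5a rose 3.71-fold, and the feedback inhibitors Cish and Socs1 rose 9.57-fold and 6.23-fold. Socs3, an inhibitor of interleukin 6 signals, fell 2.89-fold, and the kinase Jak1 2.82-fold.

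Surface proteins of activated T cells rose in 12 of 13 cases. The transferrin receptor Tfrc, which brings in iron, rose from 63.04 ± 32.3 to 1118 ± 18.4 CPM, Cd200 from 19.6 ± 1.72 to 269.9 ± 13.4 CPM and Ly6a from 124 ± 7.76 to 759 ± 31.9 CPM. Costimulatory TNF receptors split evenly, with 5 up and 5 down (4 and 5 with library totals alone). Tnfrsf4, which encodes OX40, rose 11.1-fold and Tnfrsf9, which encodes 4-1BB, 5.78-fold. Cd27, a costimulatory receptor of naive cells, fell from 217 ± 16.8 to 62.9 ± 1.68 CPM. Inhibitory receptors split likewise, 6 up and 6 down. Lag3, which binds MHC class II, was at 8.66, 9.53 and 10.3 CPM at rest and 156, 158 and 168 CPM after stimulation, a 16.9-fold rise. Tigit rose 6.88-fold, and Vsir, the receptor of quiescent T cells called VISTA, fell 5.45-fold.

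Genes of the quiescent state fell. Of 28 such genes 24 fell and 4 rose (median log2 -1.77). Klf2, a transcription factor that maintains quiescence and homing, was at 298, 306 and 287 CPM at rest and 8.38, 9.26 and 8.18 CPM after stimulation, 34.5-fold lower. Pik3ip1, which inhibits PI3 kinase, fell 34.9-fold from 111 ± 3.51 to 3.17 ± 0.237 CPM. Txnip, which holds back glucose uptake, fell from 593 ± 32.8 to 39.5 ± 2.22 CPM, and the antiproliferative factors Btg1 and Btg2 fell 3.65-fold and 4.55-fold. Tcf7, a factor of naive and memory T cells, fell 3.14-fold but stayed at 419.8, 415 and 415 CPM. The 4 that rose were Tob2, Slfn2, Bach2 and Satb1, by 0.43 to 0.81 on the log2 scale, and with library totals alone Satb1 was no longer called (adjusted p = 0.088).

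Receptors for homing and adhesion fell in 18 of 23 cases (median log2 -2.65). S1pr1, the sphingosine phosphate receptor that lets T cells leave lymph nodes, was at 438, 501 and 495 CPM at rest and 5.86, 5.41 and 5.34 CPM after stimulation, 86.4-fold lower (log2 -6.43 ± 0.09, adjusted p = 5.67e-14). Ccr9, the gut homing receptor, fell 36.2-fold. Ccr2 and Cx3cr1 also fell, 25.1-fold and 43.5-fold, and both are also receptors of myeloid cells, whose markers fell in these libraries (values are given with the other cell types). The chemokine receptors Ccr4 and Ccr8 rose, Ccr4 from 17.8 ± 2.27 to 210.0 ± 4.45 CPM and Ccr8 from 3.83 ± 0.719 to 78.99 ± 8.36 CPM, and the integrin chain Itgb1 rose 1.55-fold. Of 8 GIMAP genes, GTPases of lymphocyte survival, 7 fell and 0 rose, with Gimap3 going from 1178 ± 47.7 to 331 ± 11.6 CPM and Gimap8 from 509 ± 9.05 to 128 ± 3.97 CPM.

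Lineage factors of helper cells fell in 13 of 21 cases and rose in 5. Tbx21, the T helper 1 factor T-bet, was at 24.2, 20.9 and 15.6 CPM at rest and 246, 228 and 234 CPM after stimulation, a 11.6-fold rise. Gata3, the T helper 2 factor, rose 2.05-fold and Bhlhe40, a cofactor of cytokine production, 7.44-fold. Bcl6, the factor of follicular helper cells, fell 4.47-fold, Rora 4.07-fold and Maf 5.54-fold. Among effector and granule genes 11 of 14 fell and 1 rose. That gene was Gzmb, the protease granzyme B, which went from 6.28 ± 0.806 to 171 ± 9.47 CPM, while the pore protein Prf1 fell 3.404-fold. Prf1 is also one of the NK cell markers, whose sum fell in these libraries (values are given with the other cell types).

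Genes for making ribosomes rose without exception among those tested, 50 of 50 (median log2 2.09, range 0.65 to 3.25). Myc, the transcription factor that drives this programme in growing T cells, was at 61.8, 69.5 and 67.1 CPM at rest and 515, 501 and 491 CPM after stimulation, 7.59-fold higher, while Mxd4, which opposes Myc, fell 14.6-fold from 153 ± 5.11 to 10.5 ± 1.58 CPM. The nucleolar proteins Ncl and Npm1 rose from 669 ± 9.45 to 6228 ± 340.0 CPM and from 627 ± 25.1 to 4471 ± 184 CPM. Nhp2 and Gar1, subunits of the particles that modify ribosomal RNA, rose 9.52-fold and 8.04-fold. All 20 cytosolic tRNA synthetases rose (median log2 1.94). Eif5a, a translation factor that needs a polyamine-derived residue, rose 7.65-fold, and Odc1 and Srm, enzymes of polyamine synthesis, rose 14.2-fold and 15.8-fold.

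Ribosomal proteins themselves moved little. Of 73 genes 40 rose and 11 fell with TMM (median log2 0.22), but with library totals alone 18 rose and 34 fell (median -0.12), so their direction as a group depends on the scaling. The extremes were Rps2, which rose from 1295 ± 49.7 to 3714 ± 70.96 CPM, and Rps27, which fell from 1241 ± 121 to 527 ± 9.97 CPM. Reads of ribosomal protein genes can be shared with their many processed pseudogenes, which makes these single values uncertain.

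Glycolysis, the pathway that Pkm closes, rose in 18 of 25 genes and fell in 6 (median log2 1.66). Hk2, the inducible hexokinase that traps glucose, was at 7.08, 8.58 and 8.14 CPM at rest and 194, 179 and 188 CPM after stimulation, a 23.6-fold rise (log2 4.56 ± 0.18, adjusted p = 1.15e-09). In the middle of the pathway Tpi1 rose 16.5-fold, Gapdh 7.12-fold and Pgam1 11.1-fold. Eno1, the enolase that makes the substrate of pyruvate kinase, went from 466 ± 28.8 to 1828 ± 37.3 CPM, and Ldha, which reduces pyruvate to lactate, from 359.7 ± 8.16 to 2323 ± 49.3 CPM. The lactate exporters Slc16a1 and Slc16a3 rose 7.84-fold and 7.23-fold. The members that fell most were Pfkfb4, 3.71-fold, and Pfkfb2, 2.65-fold. Reads of Gapdh, Eno1 and Tpi1 can also match processed pseudogenes, so their single values carry that uncertainty.

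Pyruvate oxidation, which the study's title names, was covered by 17 genes of which 11 rose and 4 fell (median log2 0.63). Of the subunits of the pyruvate dehydrogenase complex, Dlat rose from 32.7 ± 0.859 to 107 ± 1.94 CPM and Dld from 61.1 ± 0.991 to 157 ± 3.99 CPM. Pdk1, a kinase that switches this complex off, was at 339, 362 and 345 CPM at rest and 109, 113 and 103 CPM after stimulation. It fell 3.22-fold (log2 -1.69 ± 0.07, adjusted p = 1.31e-10) with no overlap, and Pdk2 fell 4.09-fold. Gpt2, which interconverts pyruvate and alanine in mitochondria, rose from 1.14 ± 0.166 to 12.6 ± 0.931 CPM, and Pcx, which carboxylates pyruvate, from 3.78 ± 0.629 to 10.02 ± 0.203 CPM. In WT cells the changes were -1.33 for Pdk1, 1.88 for Dlat and 3.14 for Gpt2 on the log2 scale, against -1.69, 1.72 and 3.47 in KO cells, and the test of the difference gave adjusted p = 0.11, 0.31 and 0.44.

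Genes of the tricarboxylic acid cycle rose in 20 of 21 cases. Idh3a, of the cycle's NAD-linked isocitrate dehydrogenase, rose 4.19-fold, and Slc25a1, the citrate exporter, 3.76-fold. The only member that fell was Idh1, the cytosolic isocitrate dehydrogenase, from 18.2 ± 0.5199 to 3.401 ± 0.147 CPM. Nuclear genes of oxidative phosphorylation rose in 66 of 69 cases (median log2 1.11), for example cytochrome c, Cycs, from 45.1 ± 1.46 to 254 ± 8.48 CPM. The 13 mitochondrially encoded genes did not follow them: 4 rose and 6 fell (median log2 -0.21), and with library totals alone 2 rose and 7 fell. mt-Co1, a subunit of cytochrome oxidase, went from 10470.5 ± 1032 to 7091 ± 135 CPM, and mt-Nd1, a subunit of complex I, from 1905 ± 191 to 3328 ± 40.4 CPM. mt-Nd6, encoded on the strand opposite to the others in the list, rose from 5.45 ± 0.684 to 47.05 ± 11.7 CPM. It overlaps transcripts of the other strand and whether counting used strand is not stated, and mitochondrial reads can also match nuclear copies, so these values are uncertain. Of 9 genes of glutamine use 8 rose, Got1 from 21.97 ± 0.0792 to 164 ± 1.67 CPM.

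Building blocks for growth rose as groups. Nucleotide synthesis and the pentose phosphate pathway rose in 26 of 27 genes (median log2 2.28), led by Rrm2, a subunit of ribonucleotide reductase, from 19.7 ± 17.7 to 469.7 ± 4.45 CPM. Tyms, the thymidylate synthase, rose 19.3-fold. Serine and one-carbon genes rose in 14 of 17 cases. Shmt1, which moves a carbon unit from serine to folate, rose 25.5-fold, Psat1, of serine synthesis, 18.2-fold and Phgdh, its entry enzyme, 7.85-fold. Amino acid transporters rose in 12 of 15 cases. Slc7a5, the large neutral amino acid transporter, was at 45.2, 42.8 and 47.97 CPM at rest and 410.3, 390.1 and 399 CPM after stimulation, 8.82-fold higher. Slc7a11, the cystine transporter, rose from 0.2303 ± 0.0766 to 3.75 ± 0.469 CPM. Slc43a2, another amino acid transporter, fell 5.22-fold.

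The integrated stress response, by which ATF4 raises genes of amino acid supply, rose in 17 of 20 genes and fell in 3 (median log2 1.83). Atf3 was at 1.67, 1.81 and 1.58 CPM at rest and 92.5, 90.9 and 92.4 CPM after stimulation, and Atf4 rose 3.71-fold. Ddit3, the pathway's death-related factor CHOP, fell from 18.6 ± 1.29 to 9.85 ± 0.575 CPM. The amino acid response letters TGATGNAA, searched on both strands, were in 8 of 22 promoter windows of this list, 36.4%, against 3.83% of all windows. The share among windows of tested genes was 2.38%. It was 2.34% for genes called at least 2-fold higher and 2.97% for those called at least 2-fold lower. Atf3 had the largest rise among genes with a match, and the 250 bases before its start are shown with the match in capitals (chr1:191183334-191183583, minus strand).

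Atf3: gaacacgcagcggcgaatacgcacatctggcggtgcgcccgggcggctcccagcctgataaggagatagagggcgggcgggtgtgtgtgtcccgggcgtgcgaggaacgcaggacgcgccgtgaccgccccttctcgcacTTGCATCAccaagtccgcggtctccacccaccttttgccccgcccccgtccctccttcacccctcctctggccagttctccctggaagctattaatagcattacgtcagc

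Sterol genes moved in opposite directions by role. Synthesis and uptake rose in 21 of 22 genes (median log2 1.68), with Idi1 from 39.1 ± 1.92 to 434 ± 3.296 CPM and Cyp51 from 37.8 ± 2.37 to 272 ± 6.73 CPM. Efflux fell in 4 of 5 genes. Abca1, which exports cholesterol, was at 42.6, 49.2 and 45.6 CPM at rest and 2.05, 2.08 and 1.89 CPM after stimulation, 22.8-fold lower, and Abcg1 fell 19.4-fold. Abca1 and Nr1h3 are also made by macrophages, whose markers fell in the same libraries. Fatty acid synthesis rose in 7 of 12 genes, with Fasn from 177 ± 3.94 to 735 ± 48.01 CPM. Fatty acid oxidation rose in 10 of 13, mostly by less than 2-fold, and Cpt1a, its rate-limiting carnitine transferase, fell from 105 ± 24.6 to 56.2 ± 0.748 CPM.

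Chaperones and the proteasome rose broadly. All 8 subunits of the CCT chaperonin, which folds actin and tubulin, rose by 1.86 to 2.63 on the log2 scale. All 32 proteasome genes rose (median log2 1.69), with Psmd7 from 55.8 ± 2.74 to 325 ± 9.79 CPM. Of 19 heat shock chaperones 15 rose and 2 fell (13 and 4 with library totals alone). The mitochondrial chaperonin Hspd1 was at 187, 164 and 172 CPM at rest and 2911, 2921 and 2674 CPM after stimulation, 16.3-fold higher, and the cytosolic Hsp90aa1 rose 9.89-fold. The stress-inducible Hspa1a and Hspa1b went the other way, from 20.3 ± 1.23 to 4.19 ± 0.406 CPM and from 74.9 ± 2.199 to 8.32 ± 0.725 CPM, and since they are near-identical copies the split of reads between them is uncertain. Endoplasmic reticulum folding genes rose in 14 of 21 cases, Sdf2l1 most (6.595-fold), while Ern1, the sensor IRE1, fell 2.06-fold.

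The heat shock letters, GAA, TTC and GAA with any 2 bases between each and searched on both strands, were in 5 of 19 windows of the chaperone list, 26.3%, against 0.618% of all windows. The share among windows of tested genes was 0.461%, and among those of genes called at least 2-fold higher 0.7065%. Windows with a match were those of Chordc1, Hspd1, Hspe1 and Hsph1. The 250 bases before the Hspd1 start hold a pair of overlapping matches, shown in capitals as 1 run (chr1:55087933-55088182, minus strand).

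Hspd1: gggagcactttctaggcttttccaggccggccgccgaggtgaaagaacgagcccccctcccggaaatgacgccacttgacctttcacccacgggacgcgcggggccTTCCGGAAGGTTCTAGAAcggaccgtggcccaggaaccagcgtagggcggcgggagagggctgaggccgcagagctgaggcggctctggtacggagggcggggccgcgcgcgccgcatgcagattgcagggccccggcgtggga

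Cell cycle genes of G1, S phase and mitosis rose. Of 25 genes of G1 and S entry 20 rose and 4 fell. Among the D cyclins Ccnd2 rose from 549 ± 39.5 to 1287 ± 22.3 CPM, while Ccnd1 fell 47.3-fold from 36.6 ± 2.98 to 0.774 ± 0.204 CPM. Ccne2, the cyclin that starts S phase, rose 28.1-fold. The inhibitors Cdkn1b and Rbl2, both of quiescent cells, fell 7.62-fold and 3.92-fold, but the inhibitor Cdkn1a rose from 4.02 ± 0.426 to 109.6 ± 8.65 CPM. All 37 DNA replication genes rose (median log2 3.15), with the origin factors Mcm10 and Orc1 43.04-fold and 41.8-fold higher. Of 28 genes of G2 and M phases 27 rose (median log2 4.11), and Cdc25b had 63.7, 57.1 and 62.4 CPM at rest and 54.1, 58.3 and 57.3 CPM after stimulation and was not called. Together they made up 0.0355% of counts at rest and 0.393% after stimulation. Cdk1, the kinase that starts mitosis, was at 9.99, 1.83 and 3.35 CPM at rest and 145, 151 and 155 CPM after stimulation, a 29.7-fold rise (log2 4.89 ± 0.52, adjusted p = 1.56e-05). The first resting library, which also had the highest erythroid marker sum (1734 CPM against 228 and 148 CPM), was the highest of its group for Cdk1. Without it the rise on the log2 scale was 5.86 for Cdk1, 6.05 for Ccne2, 6.50 for Mcm10, 7.09 for Orc1 and 5.62 for Rrm2, against 4.89, 4.81, 5.43, 5.39 and 4.57 with it. The part of erythroid cells in these resting levels was not tested. Uhrf1, which guides DNA methylation to new strands, rose from 19.4 ± 9.77 to 669.8 ± 20.5 CPM and Dnmt1 from 181 ± 5.81 to 733 ± 12.8 CPM, while Tet1, which oxidises methylcytosine, fell from 27.6 ± 0.524 to 3.56 ± 0.271 CPM.

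Promoters of the replication list were searched for the E2F letters TTTNNCGC and those of the G2 and M list for the cell cycle homology letters TTTGAA and for CCAAT, on both strands. E2F letters were in 12 of 34 windows, 35.3%, against 5.13% of all windows and 7.66% of windows of tested genes. Among genes called at least 2-fold higher the share was 10.5%. TTTGAA was in 14 of 22 windows, 63.6%, against 17.6%, 12.6% and 14.55% in the same order. CCAAT was in 19 of 22, 86.4%, against 37.3%, 37.16% and 40.75%. For genes called at least 2-fold lower the shares were 4.86% for E2F letters, 13.64% for TTTGAA and 34.33% for CCAAT. Orc1 and Cdk1 had the largest rise among genes with a match of the E2F and the cell cycle homology letters, and the 250 bases before their starts are shown with these matches in capitals. Orc1 lies at chr4:108579204-108579453 on the plus strand and Cdk1 at chr10:69352913-69353162 on the minus strand.

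Orc1: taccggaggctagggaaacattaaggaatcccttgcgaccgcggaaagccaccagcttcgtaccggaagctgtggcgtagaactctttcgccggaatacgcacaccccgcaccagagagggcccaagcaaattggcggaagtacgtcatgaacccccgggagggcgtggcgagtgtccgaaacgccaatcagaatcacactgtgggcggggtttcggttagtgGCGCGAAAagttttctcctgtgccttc

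Cdk1: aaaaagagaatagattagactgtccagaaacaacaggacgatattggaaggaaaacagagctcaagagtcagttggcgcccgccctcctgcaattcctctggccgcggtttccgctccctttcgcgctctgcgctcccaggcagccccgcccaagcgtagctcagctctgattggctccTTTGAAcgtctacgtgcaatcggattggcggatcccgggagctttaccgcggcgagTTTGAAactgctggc

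The matches lie 27 bases before the Orc1 start and 71 and 15 bases before the Cdk1 start, counted from the first base of the match. In all promoters shown, the capitals overlap 0 matches of the other motifs searched. Of those, NFAT letters GGAAAA were in 11 of 28 cytokine list windows, 39.3%, against 23.3% of all windows and 20.8% of tested genes' windows. E-box letters CACGTG were in 9 of 53 windows of genes for making ribosomes, 17.0%, against 7.14% and 9.40%. Sterol response letters TCACNCCAC were in 1 of 18 windows of the sterol synthesis and uptake list, 5.56%, against 1.255% and 1.16%. For genes called at least 2-fold higher the shares were 21.48% for NFAT, 11.69% for E-box and 0.9955% for sterol response letters.

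Survival genes, the other subject of the study's title, did not move as a group. Of 7 BCL2-like survival genes 4 rose and 3 fell. Bcl2l1, which encodes BCL-XL, was at 24.6, 24.99 and 25.2 CPM at rest and 258, 239 and 236 CPM after stimulation, a 9.79-fold rise (adjusted p = 1.41e-13). Bcl2, the survival protein that IL7 maintains, was at 223, 217 and 208 CPM at rest and 111, 108 and 119 CPM after stimulation and fell 1.92-fold, and Mcl1 fell from 592 ± 18.99 to 428 ± 10.3 CPM. The Bcl2a1 genes are near-identical copies, so reads may be split between them: Bcl2a1b and Bcl2a1d rose and Bcl2a1a fell. Of 10 BH3-only and pore-forming genes 6 rose and 2 fell (5 and 4 with library totals alone). The pore formers Bax and Bak1 rose 2.65-fold and 2.13-fold, and Bmf, a BH3-only protein, fell 15.2-fold from 18.4 ± 3.601 to 1.21 ± 0.256 CPM. Bcl2l11, which encodes BIM, had 71.05, 66.02 and 67.3 CPM at rest and 67.7, 71.3 and 69.9 CPM after stimulation and was not called (adjusted p = 0.56), but it was called lower with library totals alone (log2 -0.305).

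Among 20 death receptor and caspase genes 13 rose and 5 fell, but with library totals alone 9 rose and 8 fell. Casp9, the initiator caspase of the mitochondrial death pathway, fell from 27.8 ± 0.366 to 12.5 ± 0.578 CPM. Tnfrsf10b, the TRAIL receptor, rose from 6.57 ± 0.535 to 47.9 ± 2.04 CPM. Of 17 p53 genes and targets 12 rose and 4 fell. Cdkn1a and Phlda3 rose 27.2-fold and 9.399-fold, whereas Sesn1 fell 6.68-fold and Trp53inp1 2.98-fold. In WT cells Bcl2l1 changed by 3.34, Bcl2 by -0.79 and Bmf by -4.62 on the log2 scale, against 3.29, -0.94 and -3.93 in KO cells. The test of the difference of responses gave adjusted p = 0.78, 0.73 and 0.24.

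Genes of redox, hypoxia and growth control also changed. Of 22 redox genes 18 rose, with the thioredoxin Txn1 from 49.8 ± 1.302 to 388 ± 0.963 CPM and its reductase Txnrd1 from 76.3 ± 1.21 to 399 ± 9.96 CPM. Hmox1, the haem oxygenase, fell from 98.4 ± 21.8 to 12.8 ± 1.32 CPM. Hif1a, the oxygen-sensitive factor that raises glycolytic genes, rose 3.52-fold and its target Egln3 14.5-fold. Among inhibitors of mTORC1, the growth kinase, Ddit4 fell 1.78-fold and Sesn3 2.09-fold, but Sesn2 rose 4.797-fold. Autophagy and lysosome genes fell in 14 of 21 cases, Ctss, a lysosomal protease of antigen-presenting cells, from 263 ± 26.9 to 64.6 ± 3.37 CPM.

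Interferon response genes fell in 29 of 39 cases and rose in 10 (median log2 -1.29). Those that fell include genes of the type I interferon response. Ifi213 fell 34.9-fold from 167 ± 10.9 to 4.79 ± 0.0293 CPM, Samd9l 22.5-fold and Oas2, a sensor of double-stranded RNA, 16.1-fold. Gbp2, Gbp5 and Iigp1, GTPases that interferon gamma induces, rose. Gbp2 was at 66.4, 83.4 and 70.6 CPM at rest and 923, 956 and 952 CPM after stimulation, 12.8-fold higher, Gbp5 rose 8.11-fold and Iigp1 7.13-fold. MHC class I genes fell in 7 of 12 cases, H2-K1 from 3018 ± 163 to 1502 ± 23.7 CPM, while the peptide transporter Tap1 went from 326 ± 14.9 to 462 ± 3.71 CPM and rose. The interferon response letters, GAAA and GAAA with any 2 bases between them and searched on both strands, were in 19 of 33 windows of the interferon list, 57.6%, against 3.46% of all windows. Among windows of tested genes the share was 3.35%. It was 3.28% for genes called at least 2-fold higher and 4.33% for those called at least 2-fold lower. Matches stood in genes of both directions, such as Gbp2, which rose, and Oas1a, which fell. The 250 bases before the Gbp2 start are shown with the match in capitals (chr3:142620413-142620662, plus strand).

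Gbp2: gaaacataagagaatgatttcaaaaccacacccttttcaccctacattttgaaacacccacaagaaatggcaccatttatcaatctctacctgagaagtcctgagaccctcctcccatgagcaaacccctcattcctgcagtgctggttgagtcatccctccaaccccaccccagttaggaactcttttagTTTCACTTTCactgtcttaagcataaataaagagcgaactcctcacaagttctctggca

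**Figure D2:**
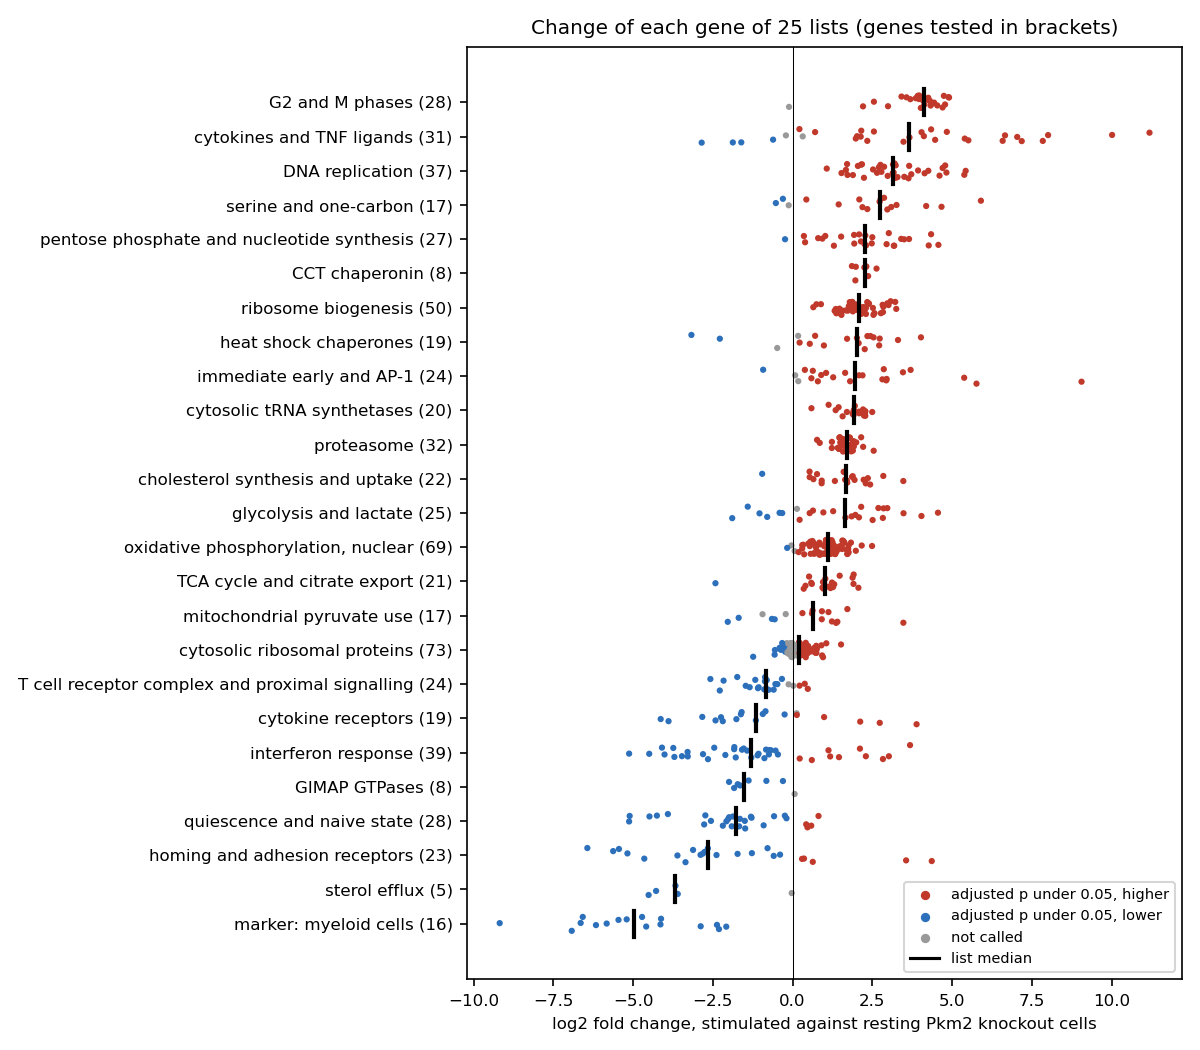
Log2 fold change of stimulated against resting Pkm2 knockout cells for each tested gene of 25 lists, with 1 point per gene, red and blue for genes called higher and lower, grey for genes not called and a black line at the list median. Points of ribosome biogenesis, DNA replication, proteasome and tRNA synthetase genes all lie above 0, points of the myeloid markers all below 0, and cytosolic ribosomal proteins stand on both sides of it.

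Transcripts of cells other than CD4 T cells fell, and they are among the largest decreases. All 16 myeloid markers fell (median log2 -4.96), from a summed level of 1262, 1225 and 1281 CPM in the resting KO libraries to 34.6, 36.9 and 29.3 CPM in the stimulated ones, and 0 of them were at 0 counts in all stimulated libraries. Csf1r, the receptor for macrophage colony-stimulating factor, fell from 179 ± 17.00 to 1.86 ± 0.288 CPM and the lysozyme Lyz2 from 372 ± 14.3 to 6.55 ± 1.304 CPM. The 15 largest decreases, chosen by the same rule as the largest increases, were led by Cd209a, a lectin of dendritic cells and macrophages. Cd209a was at 7.77, 12.6 and 10.03 CPM at rest and at 0 counts in each stimulated library, at least 213-fold lower against the floor of 3 counts per library. Mrc1, the macrophage mannose receptor, fell from 54.7 ± 7.76 to 0.0534 ± 0.0206 CPM, and Ace and Adgre4 fell from 51.6 ± 6.91 to 0.0664 ± 0.0699 CPM and from 43.9 ± 2.75 to 0.0911 ± 0.0399 CPM. The others were Sirpb1a, Sirpb1b, Sirpb1c, Abca9, C6, Itgad, Adamdec1, Cd163, Cd209b, Ptgs1 and Krt80, of which the Sirpb1 genes are close copies with uncertain counts. With stimulated levels this near the floor, single libraries moved the fitted fall of 6 of the 15 by over 1.5 times. Without the third stimulated library it was -10.57 for Ace and -12.25 for Sirpb1a on the log2 scale, against -9.52 and -10.28. Without the second it was -12.73 for C6, -9.63 for Itgad, -10.16 for Cd209b and -10.00 for Ptgs1, against -10.76, -10.23, -8.96 and -8.80, and without the first it was -10.95 for Itgad.

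B cell markers had a summed level of 4658, 4972 and 4701 CPM at rest and 1660.1, 1686 and 1735 CPM after stimulation, and 12 of 16 fell, for example Cd79a, of the B cell receptor, from 129 ± 20.4 to 25.1 ± 1.41 CPM. Fcer2a, the low-affinity IgE receptor CD23, was the only B cell marker that rose, from 55.4 ± 9.398 to 167 ± 8.31 CPM. Erythroid markers summed to 1734, 228 and 148 CPM at rest and 24.9, 14.5 and 14.7 CPM after stimulation, so the first resting library stood apart from the other two. Neutrophil markers summed to 71.9 to 171 CPM and 7.82 to 16.8 CPM, dendritic cell markers to 113 to 129 and 19.04 to 22.1 CPM, and NK cell markers to 132 to 166 and 49.5 to 59.95 CPM. Of 5 platelet markers, Gp9 and Gp1ba were at 0 counts in all stimulated libraries. The part these cells had in the falls of genes that they share with T cells, such as Ctss, Hmox1, Abca1, Ccr2, Cx3cr1 and Prf1, was not tested.

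**Figure D3:**
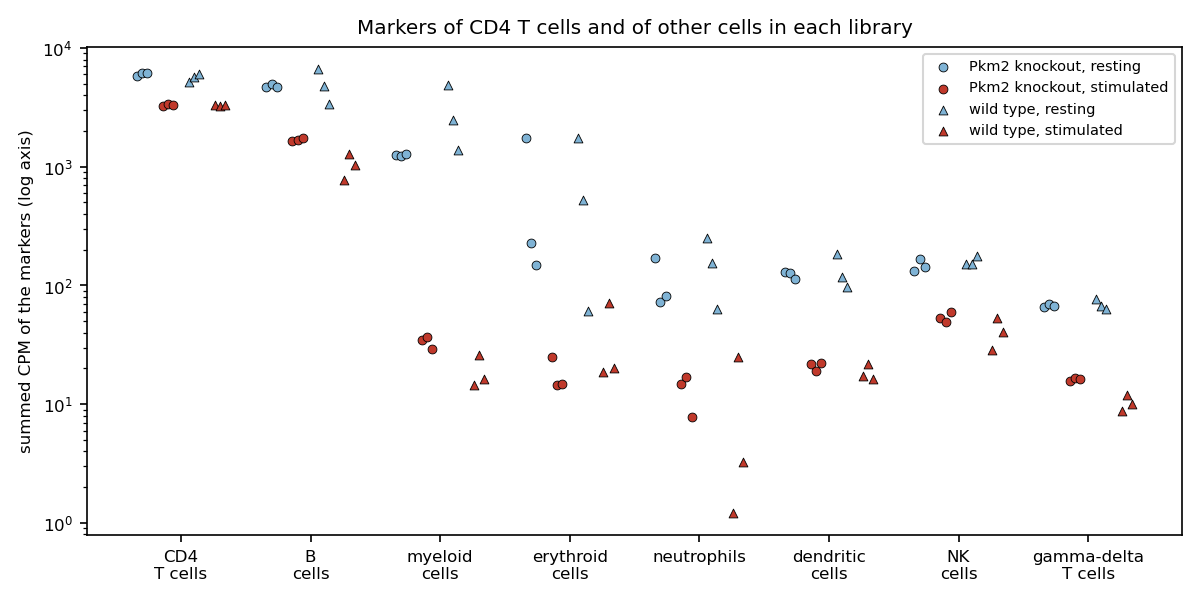
Summed CPM of marker genes, on a log axis, in each of the 12 libraries for 8 cell types, with circles for Pkm2 knockout, triangles for wild type, blue for resting and red for stimulated. Each sum is lower in the 3 stimulated than in the 3 resting knockout libraries, least for CD4 T cell markers and most for myeloid and erythroid markers, and the first resting knockout library is the highest of its group for erythroid markers.

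The same fit tested whether KO and WT cells responded differently. In WT cells 14238 genes were called, and 13235 genes were called in the same direction in both genotypes, 94.3% of the KO calls and 92.96% of the WT calls. Another 7 were called in opposite directions. The difference of responses, KO minus WT, was called for 118 of 16924 genes (0.697%) by edgeR, 95 higher (0.561%) and 23 lower (0.136%), with 2685 at an unadjusted p under 0.05. These counts rest on single libraries. Without the third stimulated KO library edgeR called 2 higher and 0 lower at the adjusted threshold. Without replicates 1, 2 or 3 of resting KO it called 57, 43 or 48 higher and 6, 7 or 7 lower, and without replicates 1 or 2 of stimulated KO 49 or 28 higher and 4 or 2 lower. Without replicates 1, 2 or 3 of resting WT it called 180, 58 or 880 higher and 37, 4 or 716 lower, and without those of stimulated WT 19, 181 or 37 higher and 1, 46 or 4 lower. DESeq2 called 593 higher and 404 lower on all libraries. Myeloid markers in the resting WT libraries summed to 4867, 2460.3 and 1383 CPM and erythroid markers to 1755, 527 and 61.2 CPM. The SD in resting WT and KO cells was 1784 and 28.7 CPM for myeloid and 875 and 893 CPM for erythroid markers. After stimulation the WT sums were 14.5 to 25.8 CPM for myeloid and 18.8 to 71.4 CPM for erythroid markers. Their part in the differences was not tested.

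Cxcr4, the chemokine receptor for CXCL12, had the smallest adjusted p for the difference. It was at 44.1, 41.6 and 41.3 CPM in resting and 5.701, 5.74 and 7.35 CPM in stimulated KO cells, and at 116, 127 and 133 CPM in resting and 3.68, 3.87 and 3.72 CPM in stimulated WT cells. It fell 6.75-fold in KO and 33.3-fold in WT cells, a difference of 2.304 ± 0.12 on the log2 scale (adjusted p = 4.80e-06). Resting WT libraries lay wholly above resting KO libraries, and stimulated WT libraries lay below stimulated KO libraries. The difference was called in 20 of the 20 other settings run, 12 of which leave out 1 library each. Slc7a11, the cystine transporter, rose by 4.01 ± 0.32 in KO and 1.21 ± 0.27 in WT cells (log2, adjusted p of the difference = 0.015, called in 17 of the 20 other settings). Its level was 0.192, 0.181 and 0.319 CPM in resting KO and 1.04, 0.812 and 1.73 CPM in resting WT libraries, against 4.11, 3.91 and 3.22 and 2.62, 3.18 and 2.497 CPM after stimulation.

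In the interferon list 7 of 39 genes had a difference called, all with a higher log2 change in KO cells. Ifi213 fell by 34.9-fold in KO and 98.97-fold in WT cells (adjusted p of the difference = 0.016, called in 16 of the 20 other settings), and Samd9l 22.5-fold and 41.8-fold (adjusted p = 0.019, called in 15 of the 20 other settings). In the quiescence list 5 genes had a difference called, all with the smaller fall in KO cells: Klf2 fell 34.5-fold in KO and 51.1-fold in WT cells, and Txnip 15.02-fold and 22.4-fold, called in 11 of the 20 other settings and 14 of the 20 other settings. S100a4, a calcium-binding protein of memory T cells and myeloid cells, fell 14.3-fold in KO and 48.4-fold in WT cells, called in 18 of the 20 other settings. Among differences of the other sign, Tnfsf4, the ligand of OX40, rose 8.55-fold in KO and 32.1-fold in WT cells, and Psrc1, a spindle protein, 9.87-fold and 29.4-fold, called in 13 of the 20 other settings and 16 of the 20 other settings. The sterol enzyme Lss rose 3.04-fold in KO and 4.19-fold in WT cells, called in 10 of the 20 other settings. C4b and Cd14, made by myeloid cells, were among the largest differences at low levels, 2.92 and 2.77 on the log2 scale, called in 17 of the 20 other settings and 7 of the 20 other settings.

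**Figure D4:**
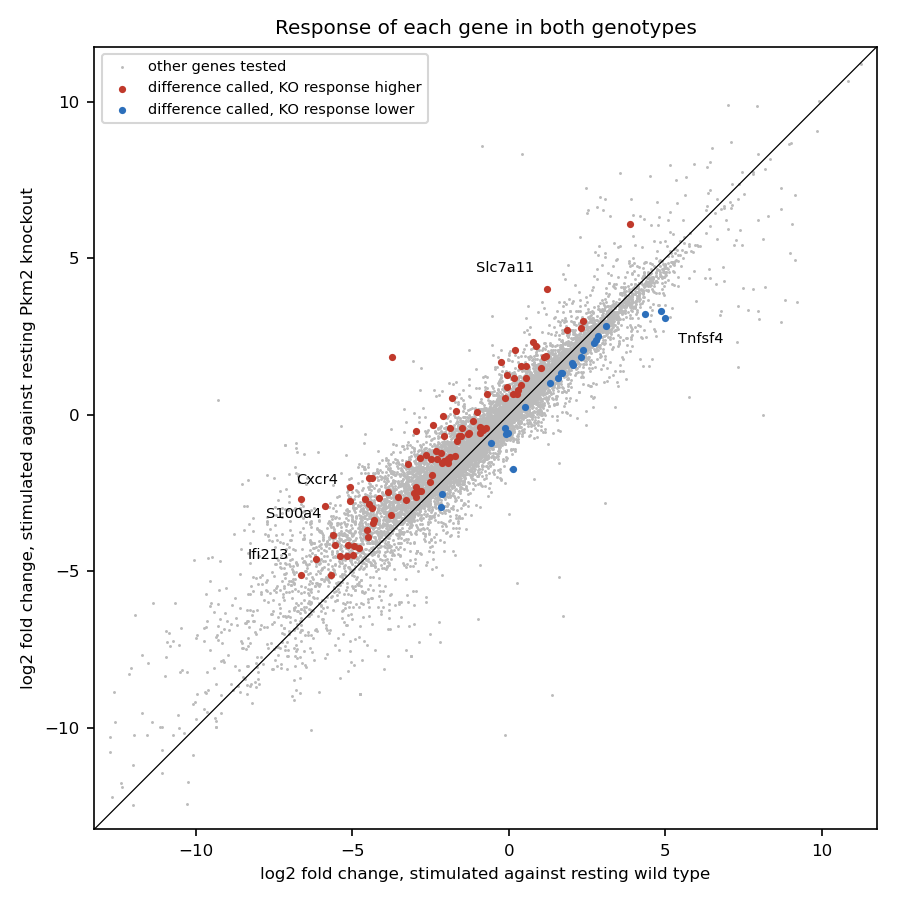
Log2 fold change with stimulation of each of the 16924 tested genes in Pkm2 knockout cells (vertical) against wild type cells (horizontal), with grey for genes without a called difference, red for the 95 genes with a higher and blue for the 23 with a lower response in knockout cells, and a line where both are equal. Red points such as Cxcr4 lie above the line and blue points such as Tnfsf4 below it.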

How the data were processed

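The values used are those the authors deposited for 12 mouse messenger RNA libraries: RSEM expected counts per gene, not normalized, in a table for the resting and a table for the stimulated libraries. Per the submitters' processing notes, RSEM 1.3.1, STAR 2.7.0f, cutadapt 1.18 and bcl2fastq 2.20 were used with mm10, with no settings and no word on strand. A column was assigned to the library whose label has its letter, and identifiers were looked up in GENCODE M21.

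Expected counts were rounded. Genes on X and Y (4184) were removed before scaling, filtering and adjustment. Genes passing filterByExpr (minimum count 10, minimum total 15) were scaled by TMM. The test was edgeR's (4.0.16, R 4.3.3) robust quasi-likelihood F-test over all 12 libraries with 4 group means, with Benjamini-Hochberg adjustment at 0.05. Contrasts were stimulated against resting in KO and the KO minus WT difference of responses, so WT libraries share in the estimate of spread. Gene CPM use TMM-scaled totals, and sums of lists and markers use the unscaled totals. Replicates of a group differed by more than sampling noise and were all kept. The scripts were tested on simulated counts.

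The members and the 65 gene lists (1189 symbols, 1 not in the tables) were chosen with earlier results of these data known. The text names Pkm, the 15 largest changes per direction (mean of at least 3 CPM, no overlap), up to 5 called members of each list by change, 3 by level and 3 in the rarer direction, and up to 10 differences of responses per direction. Predicted genes, clones, pseudogenes and receptor or immunoglobulin segments were left out of the largest changes and of the differences. Some genes that this rule names are not reported here. Fos, Ifng, Osm, Cdc25b, Bcl2l11 and Oas1a lie outside that rule and were picked with their values known. Of 224 genes named as changed the largest adjusted p was 4.43e-04, and no gene had overlapping groups. Promoter windows are RefSeq's for GRCm38.p6. Alternatives were DESeq2's size factors, library totals alone, DESeq2 1.42.0's own Wald test, all genes without a low-count filter, at least 1 CPM in 3 libraries, a non-robust fit, X and Y kept, the replicate block, only the 6 KO libraries, and each library left out.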

Additional observations from a re-analysis of the deposited data

Results flagged for a closer look

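The genes named in the report whose response differed between KO and WT by the interaction test (edgeR's quasi-likelihood test, adjusted p under 0.05) are given here as the KO response minus the WT response on the log2 scale. Among regulators of quiescence and transcription, Klf2 differed by 0.567, Txnip by 0.580, Maf by 1.38 and Fos by 1.095. Tet1 differed by -0.797. Among receptors and ligands, Cxcr4 differed by 2.304, Tigit by 0.489 and Tnfsf4 by -1.91. Interferon response genes with a difference were Ifi213 at 1.505, Samd9l at 0.891 and Oas1a at 1.333. In metabolism and growth control, Slc7a11 differed by 2.805, Abca1 by 0.655, Ddit4 by 0.820 and Lss by -0.465. The p53 target Phlda3 differed by -1.128 and the spindle gene Psrc1 by -1.575. S100a4 differed by 1.756, C4b by 2.923 and Cd14 by 2.774, and all are also genes of myeloid cells. Cxcr4 was called in 20 of the 20 other settings, Phlda3 and Ddit4 each in 19 of the 20 other settings, Abca1 and Oas1a each in 13 of the 20 other settings, Tigit in 12 of the 20 other settings, Tet1 in 9 of the 20 other settings, Maf in 8 of the 20 other settings and Fos in 6 of the 20 other settings.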

How the results depend on the processing

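The counts of genes that rose or fell in KO cells stayed within 1.5 times of the reported ones in every setting run. The counts for the difference of responses (95 higher, 23 lower) did not. The DESeq2 Wald test gave 593 higher and 404 lower, DESeq2's size factors 36 lower, library totals alone 43 lower, and the filter of at least 1 CPM in 3 libraries 46 lower. With 1 library left out the count ranged from 2 to 880 higher and from 0 to 716 lower. The cause was not tested. Bcl2l11 changed sign with library totals alone (-0.305, not called in the reported fit), which shift all log2 changes downward by construction. With the replicate block, the difference of responses gave 40 higher and 4 lower, and the KO response 6615 higher and 7168 lower. Same-numbered resting and stimulated KO libraries correlated in their deviations from the group means at 0.0691, 0.0179 and 0.0453. Resting KO libraries also held Ddx3y, which had 0 counts in each stimulated KO library, where Xist was high. The numbers were therefore not taken to pair the samples. Of the named genes' KO responses with 1 library left out, 1361 values kept direction and side of the threshold and 1 gained the call. For the named differences 131 kept it and 109 lost it. Depth limits genes near the floor of 3 counts, such as Il3 and Il9.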
